A study of Mus musculus with 2 samples.

Results

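The genes described here encode the machinery by which a cell detects foreign or misplaced RNA and DNA outside the nucleus and passes the signal to the interferon genes. They comprise 34 listed genes, chosen by symbol: sensors, adaptors, kinases with their scaffolds, and ubiquitin-linked or NLR-family regulators. Of the 34, 33 were read among the 22180 genes that the platform's gene table gives with a single symbol, and Traf3, an adaptor ligase downstream of the sensors, was not analysed here. Messenger RNA was measured on 2 Affymetrix arrays, 1 from RAW264.7 cells labelled HuR-deficient and 1 from wildtype RAW264.7 cells, an established mouse macrophage line. Poly(I:C) of high molecular weight, a man-made double-stranded RNA, had been delivered to both cultures with the transfection reagent lipofectamine 2000 for 8 hours, at a dose that the labels state as 1 mg/ml. The title of the HuR-deficient sample calls the cells HuR-KO, a knockout. The sources used here do not give how the gene was disrupted or whether the cells were 1 clone. Unstimulated cells were not analysed here. The values therefore set stimulated cells of one label beside stimulated cells of the other, and the response to the stimulus itself is not measured.

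In the cytosol, the helicases RIG-I (gene Ddx58) and MDA5 (Ifih1) bind double-stranded RNA and engage the mitochondrial adaptor MAVS, while cGAS (Cgas) binds DNA and makes a second messenger for the adaptor STING. Both branches activate the kinases TBK1 and IKK-epsilon, which phosphorylate the transcription factor IRF3 and so start interferon beta transcription. Poly(I:C) that reaches the endosome is read by TLR3, which signals through the adaptor TRIF (Ticam1). Several of the sensors are themselves interferon-inducible. HuR is the product of Elavl1 and binds AU- or U-rich elements, often with the effect of making the bound mRNA more stable. Long poly(I:C) in the cytosol is known chiefly as a ligand of MDA5.

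Each value below is a log2 signal from 1 array, there were no replicates, and no test between the conditions could be run. Differences are on the log2 scale, with the wildtype value subtracted from that of the array labelled HuR-deficient. They are set beside those of all genes on the same arrays, which is not a replicate error. A gene was counted at a fold only if its higher value reached a floor of 4.38, the median of all values of named genes, as 11905 genes did. Elavl1 itself had a signal of 7.75 on the array labelled HuR-deficient and 7.68 on the wildtype array, a difference of 0.07. The signal was thus not lower under the knockout label. The sources used here do not place the probe set relative to the disruption, so the value neither bears out the label nor counters it. Of 12 macrophage marker genes, all passed the floor. Of 37 measured markers of other cell types, 12 did. Some markers differed more than any sensing gene: of the macrophage genes, Adgre1 was 2.96-fold and Aif1 2.58-fold higher on the array labelled HuR-deficient, and the neutrophil marker S100a8 was 4.81-fold lower, at a signal of 4.04 that lay below the floor there. The macrophage genes did not move as a set: 4 of the 12 were higher and 8 lower, with a median difference of -0.07. The part of these marker differences in the results below was not tested. In bulk cultures such as these, fewer cells that express a gene and less of its RNA per cell cannot be told apart.

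Of the 33 sensing genes measured, 31 reached the floor, and each of the 31 did so on both arrays. Sarm1 and Traf6 stayed below it. None of the 31 was 2-fold higher, against 0.882% of all genes at or above the floor, and none was 2-fold lower, against 1.11% (1.99% in either direction). None was 1.5-fold higher, against 5.44% of all genes, and none 1.5-fold lower, against 5.32% (10.8% in either direction). A smaller threshold was set at a log2 difference of 0.32, which is 25% higher or 20% lower on the linear scale. At that threshold 5 genes were higher on the array labelled HuR-deficient, against a background of 17.4%, and 2 were lower, against 16.8%. The 5 higher genes were Mavs, Ikbke, Ticam1, Adar and Tank, and the 2 lower ones were Rnf135 and Ddx3x. Together the 7 are 22.6% of the 31, against 34.2% of all genes. The median difference over the 33 was 0.05, against 0 over all genes, with 20 above 0, 11 below and 2 at exactly 0. Of all 22180 genes, 49.2% lay above 0 and 46.3% below.

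**Figure D1:**
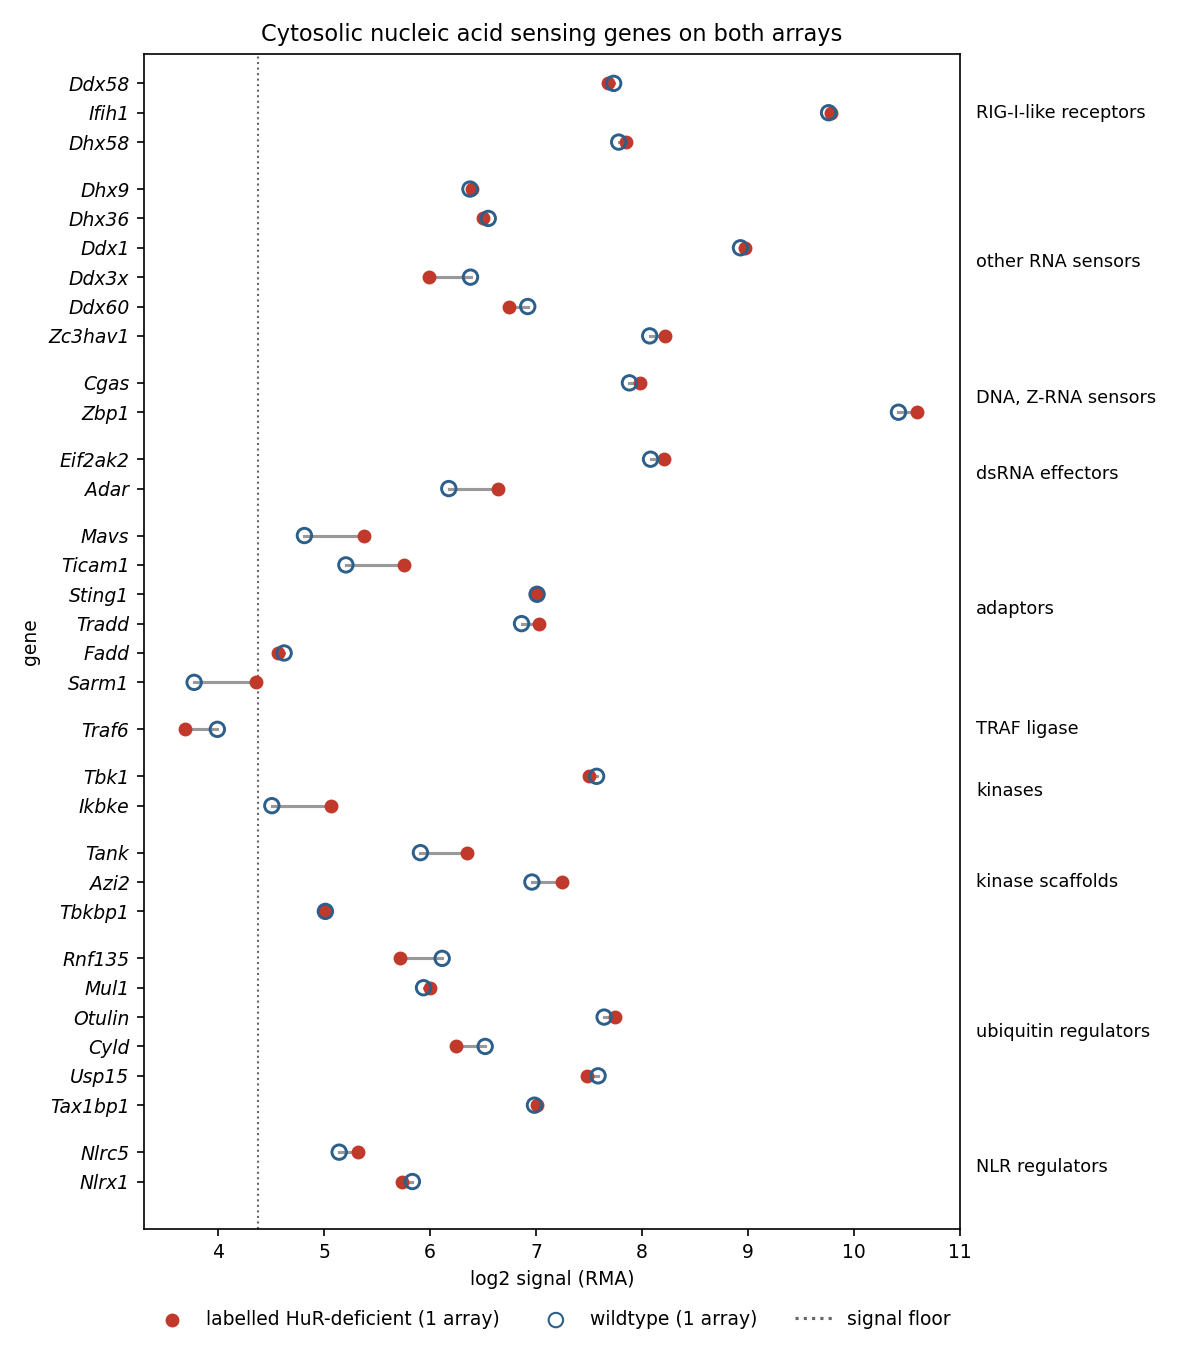
Log2 RMA signal (horizontal axis) of each of the 33 measured sensing genes (rows, grouped by role) on the array labelled HuR-deficient (filled red) and the wildtype array (open blue), with a grey line joining the values and a dotted line at the signal floor of 4.38. The points nearly coincide for the RIG-I-like receptors and stand apart for Mavs, Ticam1, Sarm1 and Ikbke, whose differences lie between 0.55 and 0.58.

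An interferon-stimulated response element (ISRE) is the DNA sequence to which interferon-activated factors bind. Its core, GAAA followed by any 2 bases and a further GAAA, was searched on both strands in the RefSeq promoter windows (build GRCm38.p6) that run from 250 bases before to 50 after a gene's start. Windows were matched for 29 of the 34 genes. The core was found in 4 of the 29, and all 4 belong to the 11 genes listed as interferon-inducible, 8 of which had a window. Over the whole table, 3.99% of 27025 genes held it. The 5 matches are shown because they belong to sensing genes known as interferon-inducible. Capitals mark the core or, for Ddx58, its reverse complement, and positions count from the start as 0.
Ddx58: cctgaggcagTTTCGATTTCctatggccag
Ifih1: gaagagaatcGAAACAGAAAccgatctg
Ddx60, distal: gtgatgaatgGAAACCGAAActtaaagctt
Ddx60, proximal: gagcagaagaGAAACCGAAActatccttc
Eif2ak2: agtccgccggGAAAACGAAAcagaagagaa
The Ddx58 stretch lies at chr4:40239804-40239833 on the minus strand, with its core 2 bases after the start, and the Ifih1 stretch at chr2:62646206-62646233 on the minus strand, with its core 32 bases after it. The Ddx60 stretches lie at chr8:61928024-61928053 and chr8:61928058-61928086 on the plus strand, with cores that begin at -53 and -19. The Eif2ak2 stretch lies at chr17:78882535-78882564 on the minus strand, with its core 18 bases after the start. The differences of these 4 genes were small and of both signs: -0.05 for Ddx58, 0.03 for Ifih1, -0.17 for Ddx60 and 0.13 for Eif2ak2. The shorter element of STAT dimers, TTC and GAA with any 3 bases between, occurred in windows of 4 of the 29 (Adar, Eif2ak2, Mul1 and Nlrx1), against 9.55% of all genes. An NF-kappaB element, GGGA and TTTCC with any 1 base between, occurred in 1 of the 29, Cyld, against 0.466% of all genes. A match is a run of letters and does not show binding.

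The 3 RIG-I-like receptors gave nearly the same signal on both arrays. Ifih1, which encodes MDA5, the receptor for long double-stranded RNA, had 9.79 on the array labelled HuR-deficient and 9.76 on the wildtype array. Ddx58, which encodes RIG-I, a receptor for short RNA ends that carry a triphosphate, had 7.68 on the array labelled HuR-deficient and 7.73 on the wildtype array. Dhx58 encodes LGP2, which lacks the caspase recruitment domains of the other receptors and modulates them. It had 7.85 on the array labelled HuR-deficient and 7.78 on the wildtype array. The largest difference among the 3 was 0.07, for Dhx58, and 82.3% of all genes at or above the floor differed by at least as much.

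The other RNA-binding sensors and helicases numbered 6, of which 3 lay above 0 and 3 below. Ddx3x, an X-linked DEAD-box helicase that binds the kinase module as well as RNA, had 5.99 on the array labelled HuR-deficient and 6.38 on the wildtype array. Its difference of -0.39, 1.31-fold lower, was the 1 in this group past 0.32, and 25.4% of all genes differed by as much. Ddx60, a helicase that promotes RIG-I signalling, differed by -0.17 (6.75 on the array labelled HuR-deficient, 6.92 on the wildtype array). Zc3hav1 encodes the zinc-finger antiviral protein ZAP, which directs CpG-rich viral RNA to decay. Its signal was 8.22 on the array labelled HuR-deficient and 8.07 on the wildtype array, a difference of 0.14. The helicases Dhx9, Dhx36 and Ddx1, which have been described as further RNA or DNA sensors in dendritic cells, differed by 0.02, -0.05 and 0.05.

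Sensors of DNA and of Z-form nucleic acid were slightly higher on the array labelled HuR-deficient. Cgas had 7.98 there and 7.88 on the wildtype array, a difference of 0.10. Zbp1, which binds Z-form RNA or DNA and can start necroptosis, had 10.60 on the array labelled HuR-deficient and 10.42 on the wildtype array, a difference of 0.18. Both differences were smaller than the median size over all genes at or above the floor, 0.22.

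The effectors and editors of double-stranded RNA divided in size. Eif2ak2 encodes PKR, the kinase that halts translation when it binds double-stranded RNA. Its signal was 8.21 on the array labelled HuR-deficient and 8.08 on the wildtype array. Adar encodes ADAR1, which converts adenosine to inosine in a cell's own double-stranded RNA and so keeps MDA5 from responding to it. Adar had 6.64 on the array labelled HuR-deficient and 6.18 on the wildtype array, 1.38-fold higher (difference 0.47). Of all genes at or above the floor, 18.3% differed by at least as much.

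Among the adaptors, the larger differences were those of Mavs and Ticam1, and both were higher on the array labelled HuR-deficient. Mavs had 5.38 on the array labelled HuR-deficient and 4.81 on the wildtype array, 1.48-fold higher (difference 0.56). Ticam1, which encodes the TLR3 adaptor TRIF, had 5.75 on the array labelled HuR-deficient and 5.21 on the wildtype array, 1.46-fold higher (difference 0.55). Of all genes at or above the floor, 11.8% differed by as much as Mavs and 12.7% by as much as Ticam1. Sarm1, an NAD-cleaving enzyme and TIR-domain adaptor described in human cells as a brake on TRIF, had 4.36 on the array labelled HuR-deficient and 3.77 on the wildtype array. Its difference, 0.58, was the largest of the 33, but both signals lay below the floor, so it was not counted.

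The adaptor of the DNA branch gave no such difference. Sting1 had 7.01 on the array labelled HuR-deficient and 7.01 on the wildtype array, the same deposited value to the last digit. The scaffold gene Tbkbp1 also had identical values, 5.01 on each array. Such ties occurred in 4.53% of the 22180 genes. They were rarer among genes at or above the floor, of which 49.3% lay above 0 and 48.6% below. Equal signals do not establish equal mRNA. The death-domain adaptors link MAVS to caspase and NF-kappaB signalling. Tradd differed by 0.16 and Fadd by -0.06, both smaller in size than the median over all genes at or above the floor, 0.22.

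**Figure D2:**
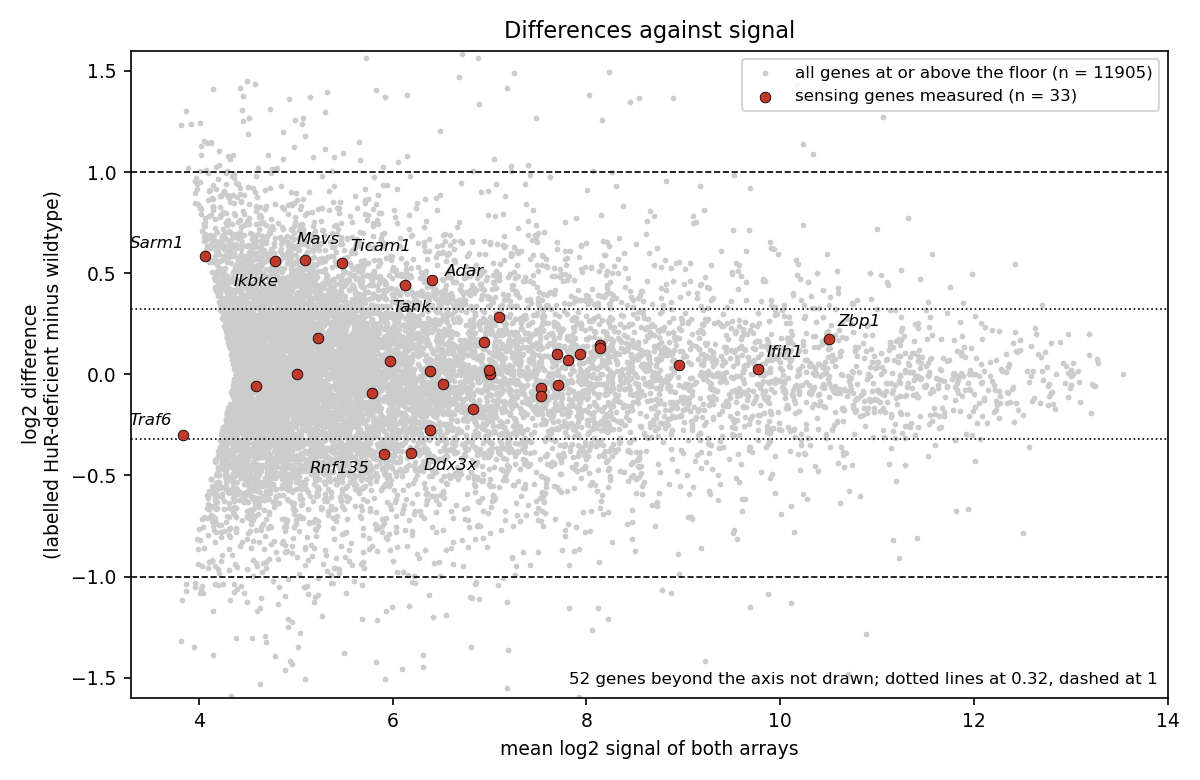
Log2 difference (vertical axis, labelled HuR-deficient minus wildtype) against the mean log2 signal of both arrays for the 11905 genes at or above the floor (grey) and the 33 sensing genes (red), with dotted lines at 0.32 and dashed lines at 2-fold. The sensing genes past 0.32 have mean signals between 4.07 and 6.41, those with higher signals stay inside the dotted lines, and 52 genes beyond 1.6 on the vertical axis are not drawn.

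The kinases that phosphorylate IRF3 differed from each other. Ikbke, which encodes the inducible kinase IKK-epsilon, had 5.07 on the array labelled HuR-deficient and 4.51 on the wildtype array, 1.48-fold higher (difference 0.56). The wildtype value of Ikbke lay close to the floor of 4.38, and 12.0% of all genes at or above the floor differed by as much. Tbk1, which encodes the constitutive relative of IKK-epsilon, had 7.50 on the array labelled HuR-deficient and 7.57 on the wildtype array, a difference of -0.07. The scaffolds TANK, NAP1 (Azi2) and SINTBAD (Tbkbp1) tether these kinases to the adaptors. Tank had 6.35 on the array labelled HuR-deficient and 5.91 on the wildtype array, 1.36-fold higher (difference 0.44). Of all genes at or above the floor, 20.7% differed by as much as Tank. Azi2 had 7.24 on the array labelled HuR-deficient and 6.96 on the wildtype array, a difference of 0.28 that did not reach 0.32.

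The ligase and deubiquitinase genes lay nearer to 0 or below it. Rnf135 encodes Riplet, the ligase that adds ubiquitin chains to RIG-I and is needed for its signalling. It had 5.72 on the array labelled HuR-deficient and 6.11 on the wildtype array, 1.31-fold lower (difference -0.39), and 24.9% of all genes differed by as much. Cyld, which removes ubiquitin chains from RIG-I and other signalling proteins, had 6.24 on the array labelled HuR-deficient and 6.52 on the wildtype array, a difference of -0.27. Traf6, a ligase that carries the signal to NF-kappaB, differed by -0.30 at signals below the floor (3.69 on the array labelled HuR-deficient, 3.99 on the wildtype array). Otulin, which cleaves linear ubiquitin chains, differed by 0.10, and Usp15, a deubiquitinase that acts on the RIG-I ligase TRIM25, by -0.11. Tax1bp1, a ubiquitin-binding partner of the inhibitor A20, differed by 0.02, and the mitochondrial ligase gene Mul1 by 0.06.

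Mul1 was the only sensing gene with more than 1 probe set. The weaker of its probe sets differed by 0.32 (4.36 on the array labelled HuR-deficient, 4.04 on the wildtype array), against 0.06 for the one used. Both values of the weaker probe set lay below the floor of 4.38. The NLR-family genes differed by little. Nlrc5, the interferon-inducible activator of MHC class I genes, had 5.32 on the array labelled HuR-deficient and 5.14 on the wildtype array. Nlrx1, a mitochondrial protein described as a brake on MAVS, had 5.74 on the array labelled HuR-deficient and 5.83 on the wildtype array.

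Sorted by step, with a grouping into 3 steps made after the values were seen, the genes at or above the floor gave the following counts. Of 13 sensors and effectors, 1 was higher by at least 0.32 and 1 lower, with a median difference of 0.05. Of 10 adaptors, kinases and scaffolds, 4 were higher by at least 0.32 and none lower, with a median of 0.22. Of 8 ubiquitin and NLR regulators, none was higher and 1 was lower, with a median of -0.04. The background at 0.32 is 17.4% higher and 16.8% lower, as above, and with so few genes a step these counts are a description of 2 arrays.

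**Figure D3:**
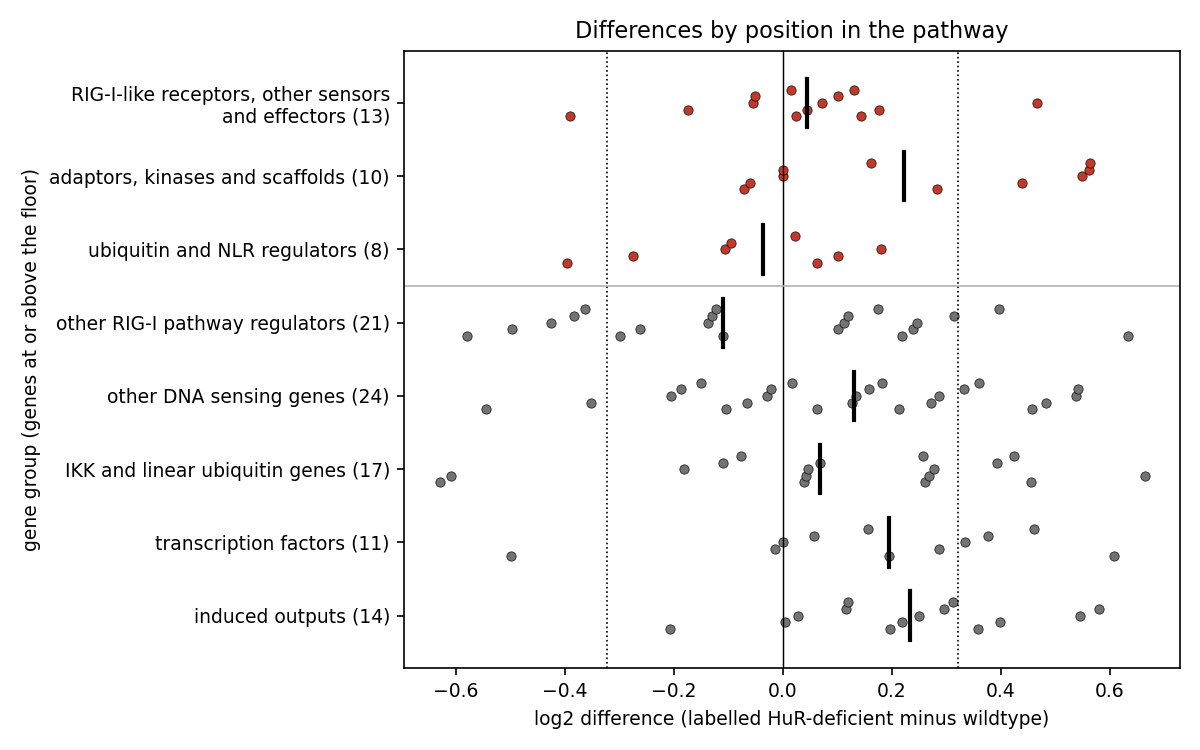
Log2 difference (horizontal axis, labelled HuR-deficient minus wildtype) of each gene at or above the floor, by group, with the number of genes in brackets, a black bar at each group's median and dotted lines at 0.32. The first 3 rows (red) hold the 31 sensing genes, with medians of 0.05, 0.22 and -0.04, and the rows below (grey) hold the other pathway lists, with medians from -0.11 to 0.23.

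The 11 members listed as interferon-inducible from general knowledge (Ddx58, Ifih1, Dhx58, Zbp1, Eif2ak2, Adar, Ddx60, Zc3hav1, Cgas, Nlrc5 and Ikbke) had a median difference of 0.13, with 9 above 0 and 2 below. The 22 other measured members had a median of 0.01, with 11 above 0, 9 below and 2 at 0. Of all genes, 49.2% lay above 0. Among the inducible genes, Ikbke and Adar, 2 of 11, were higher by at least 0.32, against 17.4% of all genes, and the range was -0.17 to 0.56. A small positive median of interferon-stimulated genes on these arrays was already known when this list was made.

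The size of the differences was examined over all genes and by signal. Of the 31 sensing genes at or above the floor, 13 (41.9%) differed by less than 0.1 and 22 (71.0%) by less than 0.2, against 24.2% and 46.4% of all genes. Their median size was 0.11, against 0.22 for all genes. Signal moved with this result: 15 of the 31 lay in the top 25% of genes by mean signal, where all genes had a median size of 0.18, and 1 lay in the bottom 25%, where it was 0.28. Within the top 25% the 15 had a median size of 0.10, with none past 0.32, against 26.5% of all genes there. In the next 25% below them, 5 of 11 passed 0.32, against 33.5% of all genes there, and their median size was 0.27, against 0.22. In the 25% below those, 2 of 4 did, against 34.2%, with a median size of 0.37, against 0.22. The median size of the sensing genes was thus below that of all genes in the top 25% and above it in the next 2 groups. The part of signal in the size of these differences was not tested further.

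**Figure D4:**
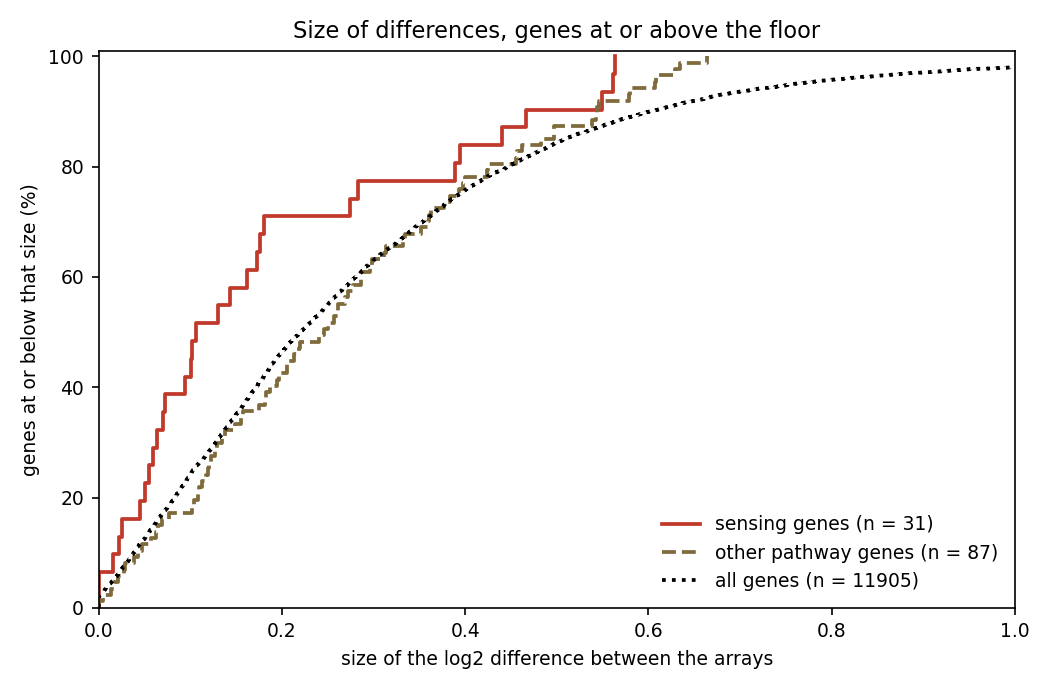
Share of genes (vertical axis, percent) whose log2 difference between the arrays was at or below the size on the horizontal axis, for the 31 sensing genes (solid red), 87 other pathway genes (dashed) and all 11905 genes at or above the floor (dotted). At 0.2 the sensing genes' curve lies left of the others, with 71.0% below that size, against 42.5% of the other pathway genes and 46.4% of all genes. At larger sizes it crosses the curve of the other pathway genes.

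The rest of the pathway was read from 5 further lists, which hold 105 genes, 93 of them measured and 87 at or above the floor. Of the 87, 20 were higher by at least 0.32 on the array labelled HuR-deficient, against 17.4% of all genes, and 10 lower, against 16.8%. Together these were 34.5% of the 87, against 34.2% of all genes. At 1.5-fold in either direction there were 5 (5.75%), against 10.8% of all genes. None reached 2-fold. The median over the 93 was 0.12. The counts above 0 given below for each list stand beside a share of 49.3% of all genes at or above the floor.

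Other regulators of the RIG-I pathway lay on both sides of 0, with 10 of 21 above it and a median of -0.11. Usp21, a deubiquitinase that acts on RIG-I, differed by 0.63 (8.26 on the array labelled HuR-deficient, 7.62 on the wildtype array), and Smurf1, a ligase, by 0.40. G3bp1, which nucleates stress granules, differed by -0.58 (7.51 on the array labelled HuR-deficient, 8.09 on the wildtype array), and Prkra, the PKR activator, by -0.50.

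Other genes of DNA sensing had 15 of 24 above 0 and a median of 0.13. Ifi205, a DNA-binding PYHIN protein gene, differed by 0.54, as did Mre11a, a DNA repair nuclease gene. Trim56, a ligase that acts on the cGAS and STING branch, differed by -0.54, and Rnf5, a ligase that marks STING for degradation, by -0.35.

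The IKK and linear ubiquitin genes had 12 of 17 above 0. Rnf31, the catalytic subunit of the linear ubiquitin ligase, had 5.80 on the array labelled HuR-deficient and 5.14 on the wildtype array, 1.58-fold higher (difference 0.66), and its partner Sharpin differed by 0.46. The ubiquitin-binding autophagy receptor gene Sqstm1 differed by -0.63, and Tnfaip3, which encodes the inhibitor A20, by -0.61.

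At the end of the pathway, 8 of 11 transcription factor and coactivator genes lay above 0, with a median of 0.20. Nfkb2 differed by 0.61 and the coactivator gene Ep300 by 0.46, while Jun differed by -0.50 and Atf2 by -0.01. Irf3, the factor that the kinases phosphorylate, had the same value of 5.43 on each array, and it is named here after its value was seen. Of the 14 genes that the pathway switches on, 13 lay above 0, against 49.3% of all genes at or above the floor, with a median of 0.23. Several of the 14 are interferon-stimulated genes, whose small positive median on these arrays was already known. The genes also tend to be switched on together, so the count is a description and not independent support. Among the 14 is Ifnb1, the interferon beta gene at the end of the pathway, whose signal was 11.80 on each array (difference 0.0050). Another is Ifit3, whose difference was 0.03. Both are named after their values were seen. Rsad2, which encodes the antiviral enzyme viperin, differed by 0.58, the chemokine gene Cxcl10 by 0.55 and the interferon gene Ifna4, the 1 below 0, by -0.21.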

How the data were processed

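Per the submitters' processing notes, the authors ran RMA, and they deposited log2 values in 1 column per array. The sources used here give no version, annotation or genome build. RMA corrects background, quantile-normalises the arrays and summarises probes by median polish. It therefore hides a change in total mRNA and compresses weak signals. The values ran from 0.434 to 13.77, from which the log2 scale was inferred. The number of arrays limits the precision.

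Of 41345 probe sets, 23521 had 1 gene symbol in the platform's gene table, 1814 had several and 16010 none. Only the first were used, and for the 1082 genes with several the one with the highest mean was taken. Counts at 2-fold, 1.5-fold and a log2 difference of 0.32 use genes at or above the floor. The genes named are the 34 members, Elavl1 and, per further list, up to 2 with the largest difference in each direction. The members and lists were chosen with earlier results of these data known. No p-value was computed. The step that takes differences and counts genes at 2-fold was tested on simulated data. Those data held 1 probe set per gene and used no floor. The choice of probe set, the floor and the smaller thresholds were therefore not tested in that way. Other scalings, probe set rules, floors and folds were tried. Promoter windows and coordinates are those of RefSeq (GRCm38.p6). Computations used pandas 2.3.3 and numpy 2.4.6 under Python 3.11.15, with statsmodels 0.14.6 for loess and matplotlib 3.10.9 for figures.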

Additional observations from a re-analysis of the deposited data

How the results depend on the processing

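No paired analysis was possible because each condition has 1 array. The count of sensing genes at 2-fold was 0 in each direction. It was also 0 with no floor, with a floor at the 75th percentile, with probe sets averaged and under every scaling tried. At 1.5-fold the count was made on the deposited scale only, where it was 0. The reference-gene centring described below brings some sensing genes past 1.5-fold, such as Mavs at 0.91. On the deposited scale, the count at a log2 difference of 0.32 was 5 higher and 2 lower. Removal of a loess trend (span 0.3), a repeated quantile normalisation and centring on the median of all differences moved the sensing genes by 0.04 at the most (rounded), and averaging probe sets moved Mul1 to 0.19. The median of the 33 ranged from 0.04 to 0.06 under these settings, it was 0.04 over the 26 above the higher floor, and the mean of the 33 was 0.08. An alternative chosen after seeing the data centred the differences on 11 reference genes, whose own differences ran from -1.48 to 0.04 with a median of -0.35. It shifts every gene by 0.35, the median of all genes included, so nothing changes relative to that shift. Under it the median was 0.40 for the sensing genes, 0.48 for the interferon-inducible ones, 0.36 for the others and 0.47 for the further lists, 31 sensing genes lay above 0, 9 changed sign and Elavl1 stood at 0.42. Whether differences of this size would recur between cultures was not tested, since each condition has 1 array.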
